A study of Mus musculus with 28 samples.

Results

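The set comprised 9 genes of the DNA damage response that act in meiosis, namely Brca1, Atr, Atm, Topbp1, Mdc1, H2afx, Rnf8, Fancd2 and Setdb1, and the measurement was the acetylation of lysine 27 of histone H3 (H3K27ac), a mark of active promoters and enhancers. The genes were chosen by name. Their peaks were all H3K27ac peaks listed beside the symbol, and a peak counted as a promoter peak when it lay within 1000 bp of a start listed under that symbol alone. Such a start was listed for 17923 symbols. Atr had none, because every line naming it also named 1700065D16Rik, so its start was taken from those shared lines. In mm10 the genes lie at chr11:101488764-101551955 (Brca1, minus strand), chr9:95857597-95951644 (Atr, plus), chr9:53437122-53536671 (Atm, minus), chr9:103305327-103350427 (Topbp1, plus), chr17:35841498-35859670 (Mdc1, plus), chr9:44334715-44336073 (H2afx, plus), chr17:29614831-29641659 (Rnf8, plus), chr6:113531682-113596285 (Fancd2, plus) and chr3:95323525-95357202 (Setdb1, minus). Of 471458 H3K27ac peaks, 115 stood on a line of a member alone, and 133 were promoter peaks of members, shared lines included.

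All cells came from testes of C57BL/6 mice and were isolated by magnetic sorting (MACS) or by sedimentation (STA-PUT). Wild-type (WT) cells and cells of mice with a knockout of Scml2 (Scml2-KO, here KO) were compared. SCML2 is a germline subunit of Polycomb-type complexes. The 12 H3K27ac libraries fell into 6 groups of 2 replicates. These were Thy1+ spermatogonia and c-Kit+ spermatogonia at postnatal day 7, each WT and KO, together with adult KO cells of 2 later stages, pachytene spermatocytes (PS, in meiosis) and round spermatids (RS, after it). H3K27ac in WT PS and WT RS was not analysed here, so all meiotic and later values are from KO cells, and cell stage cannot be told apart from age. Input chromatin was given for all 8 combinations of cell type and genotype, with 2 libraries each. The labels do not say whether replicates came from separate animals, so p-values measure the spread between these libraries, which may be technical.

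Meiotic cells cut their own DNA to start recombination, and the damage response both repairs these breaks and marks chromosomes that have no pairing partner. In male meiosis the unpaired X and Y chromosomes are loaded with BRCA1, TOPBP1 and the kinase ATR, which phosphorylates the histone variant H2AX. MDC1 binds the phosphorylated histone and spreads the signal over the chromatin, RNF8 adds ubiquitin, FANCD2 of the Fanconi anaemia pathway accumulates there, and SETDB1 methylates lysine 9 of histone H3 as the sex chromosomes are silenced. ATM is the related kinase that responds first to the breaks themselves.

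The H3K27ac libraries held 17877 to 73316 peaks, with 63322 or more in each PS and RS library. Read depth is unknown, and the height of the constant background, from 0.564 to 1.62, was the only hint of it. In the median promoter called in all libraries the log2 fold enrichment was 3.12 to 4.48, and Thy1+ KO replicate 1 stood apart from the other spermatogonial libraries at 4.23. Spermatocyte markers (6 genes, among them Sycp3, Hormad1 and Piwil1) all had promoter peaks in PS and RS and 0 to 3 of them did in a spermatogonial library. Of the 6 markers of undifferentiated spermatogonia, Etv5 was called in all 12 libraries and Gfra1, Id4 and Lin28a in no Thy1+ WT library. Zbtb16 was called in 8 libraries, among them both Thy1+ WT (5.24 and 6.03) but neither c-Kit+ WT library. Nanos2 had no listed start. Of 4 markers of differentiating spermatogonia, Kit was called in all 4 c-Kit+ libraries but also in 2 of 4 Thy1+ and all 4 adult ones, Stra8 in 1 c-Kit+ library, and Dmrtb1 and Sohlh2 in none of the 8 spermatogonial libraries. Promoter peaks at Scml2 itself were called in 0 of 4 WT and 2 of 4 KO spermatogonial libraries, and since the deleted part is not given in the sources used here, they do not check the genotype.

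The DNA just upstream of 4 of the starts is given here to show the promoters of the genes described most closely. The highest summits at Atr, Mdc1 and the inner site of Setdb1 lay inside the gene, beyond these stretches. Brca1 and Atr each face a neighbouring gene across a short gap. Mdc1 and Atr are the members whose promoter mark was called higher in PS relative to the median region, and at Setdb1 separate narrow peaks lay over and inside the start. The sequences are RefSeq promoter sequences of GRCm38.p6, printed 5′ to 3′ on the strand of the gene and ending at the base before its start. Capitals mark CCAAT boxes (CCAAT, the NF-Y element), GC boxes (GGGCGG), ETS motifs (CCGGAAG), the core of a cyclic AMP response element (TGACGT), E2F motifs (TTTCCCGC or TTTGGCGC) and MYB motifs (CAACNG or TAACNG), on either strand. No marked matches overlap in these stretches, and the 2 MYB matches at Atr abut.
Atr, chr9:95857518-95857596 on the plus strand, the 79 bases between its start and that of 1700065D16Rik: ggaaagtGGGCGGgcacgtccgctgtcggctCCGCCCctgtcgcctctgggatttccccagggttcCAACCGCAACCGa
Mdc1, chr17:35841248-35841497 on the plus strand, 250 bases: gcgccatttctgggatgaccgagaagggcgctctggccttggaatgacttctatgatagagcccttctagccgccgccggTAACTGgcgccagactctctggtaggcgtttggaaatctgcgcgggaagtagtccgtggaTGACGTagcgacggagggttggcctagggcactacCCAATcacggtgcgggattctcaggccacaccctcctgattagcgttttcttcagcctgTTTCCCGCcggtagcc
Brca1, chr11:101551956-101552106 on the minus strand, the 151 bases between its start and that of Nbr1: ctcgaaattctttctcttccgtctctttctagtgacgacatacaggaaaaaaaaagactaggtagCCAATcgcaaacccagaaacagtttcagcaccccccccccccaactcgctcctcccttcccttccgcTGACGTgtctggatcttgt
Setdb1, chr3:95357203-95357452 on the minus strand, 250 bases: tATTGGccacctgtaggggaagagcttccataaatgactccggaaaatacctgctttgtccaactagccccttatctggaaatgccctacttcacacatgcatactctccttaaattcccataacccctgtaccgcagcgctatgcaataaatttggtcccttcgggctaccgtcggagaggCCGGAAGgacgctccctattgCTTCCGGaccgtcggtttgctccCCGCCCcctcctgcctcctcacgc

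Promoter windows of 300 bases (250 before and 50 after the start) were found in that table for 7 of the 9 genes. CCAAT was present at 5 of the 7, against 38.2% of 21263 promoters of protein-coding genes, and GGGCGG at 6 of the 7, against 46.2%. CCGGAAG was present at Setdb1, Atm, Atr and Topbp1 (4 of 7, against 11.6% of promoters). At Atm it did not lie within the 250 bases before the start, and at Atr not within the 79 bases printed. TGACGT was present at Brca1 and Mdc1 (2 of 7, against 8.49%). The NRF1 motif was present at Atm and Rnf8 (2 of 7, against 6.38%), the E2F letters at Mdc1 (1 of 7, against 2.02%) and the MYB letters at Atr, Topbp1 and Mdc1 (3 of 7, against 47.6%). The observed-over-expected ratio of CpG in the windows ran from 0.703 at Setdb1 to 0.957 at Atm, against a median of 0.567 over all promoters. These are matches of letters and were not tested as binding sites.

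H3K27ac was called at the promoters of nearly all 9 genes in every germ cell type. Brca1, Atr, Atm, Topbp1, H2afx, Rnf8 and Fancd2 had a promoter peak in all 12 libraries, that is 7 of 9 genes. Of Atr and the 17923 symbols with a start listed alone, 8753 had one in all 12. The share was 42.4% over 17492 protein-coding genes with a RefSeq promoter sequence. Fancd2 and H2afx are not among those genes, so that share was measured differently. Mdc1 lacked a peak in Thy1+ KO replicate 2 and Setdb1 in Thy1+ WT replicate 2. Together 106 of 108 pairs of gene and library had a promoter peak, and 99 of 108 did when a −log10 q of at least 5 was required. None of the 16 input libraries, which held 359 to 1192 peaks each, had a peak at any member. A fold enrichment here is the height of the signal at the highest summit over the library's constant background, as deposited, and it mixes the share of cells that carry the mark with the amount of mark per cell, which cannot be told apart.

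**Figure D1:**
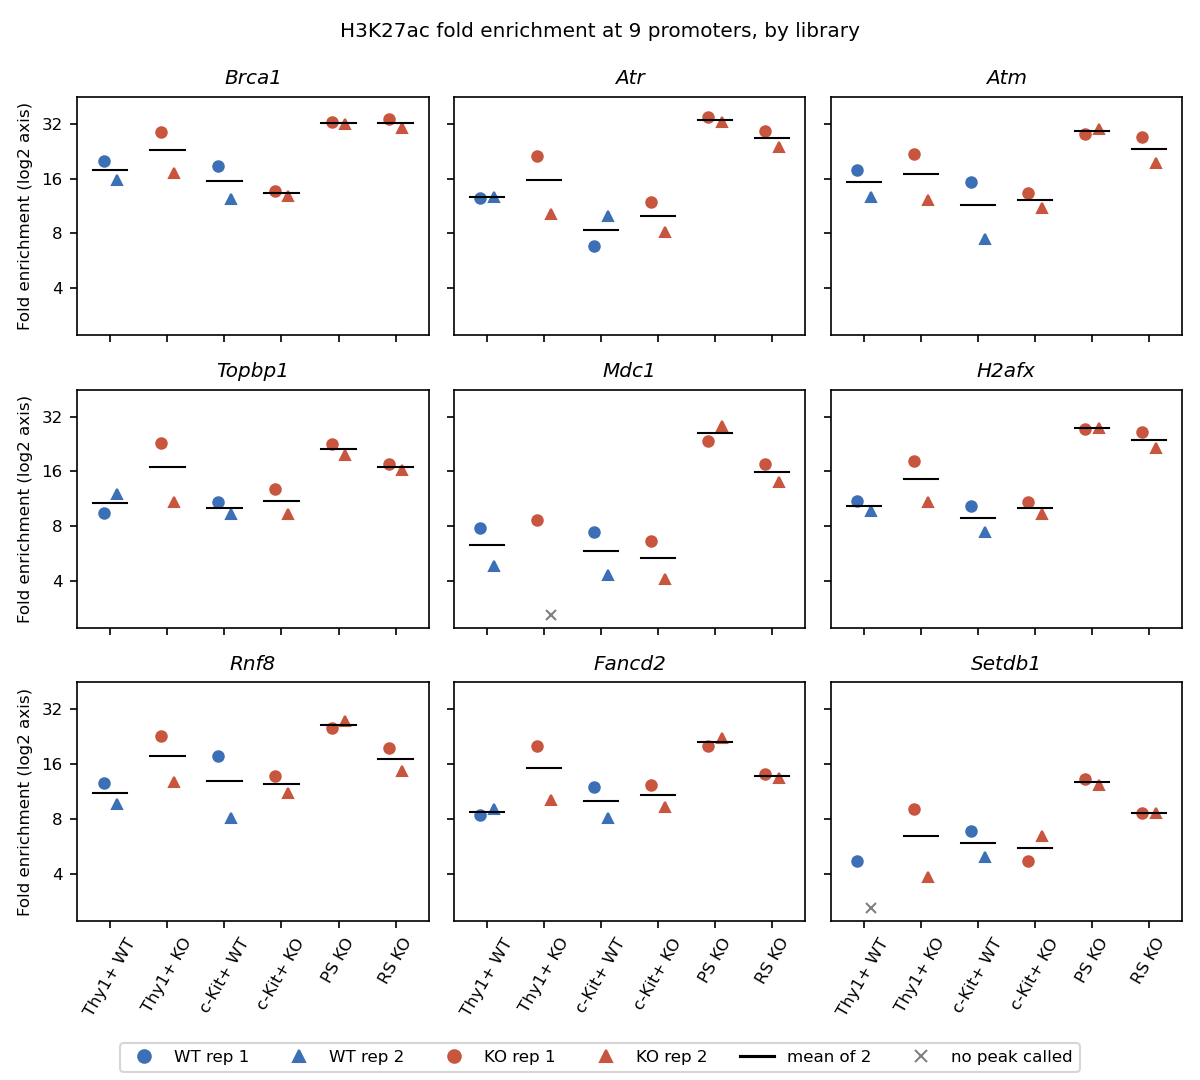
Fold enrichment of H3K27ac at the promoter of each gene (log2 axis) in the 12 libraries, with circles and triangles for replicates 1 and 2, blue for WT, red for KO, a bar at the mean of 2 and a cross where no peak was called. The 4 PS and RS points lie above every spermatogonial point at Brca1, Atr, Mdc1 and H2afx, and Thy1+ KO replicate 1 is the highest spermatogonial library at all 9 genes.

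Mdc1, which encodes the scaffold that binds phosphorylated H2AX, was among the weakest members in spermatogonia and rose most in spermatocytes. In Thy1+ cells its fold enrichment was 7.86 and 4.83 in the WT replicates and 8.61 in the first KO replicate, with no peak in the second. In c-Kit+ cells it was 7.41 and 4.34 in WT and 6.62 and 4.08 in KO. In PS it was 23.6 and 28.3, and in RS 17.6 and 14.1. All 4 adult libraries were above all 7 spermatogonial libraries with a peak, and the RS values were below both PS values. Between c-Kit+ KO (5.35 ± 1.80, SD, n = 2) and PS KO (25.9 ± 3.26, SD, n = 2), the log2 change relative to the median region (the centred change) was 1.24 (SE 0.20, adjusted p = 0.000778 by limma), and 99.6% of the 12501 regions tested had a smaller change. With the stricter peaks (−log10 q of at least 5) the change could not be fitted, since c-Kit+ KO replicate 2 then had no peak. Under every other alternative it was above 0. It did not pass without c-Kit+ KO replicate 2 (change 1.13, limma adjusted p = 0.0714), a fit in which 0 regions in all passed, and when regions called in 2 of the 4 libraries were let in, with the lowest fold of the library in place of a missing peak (1.55, limma adjusted p = 0.0657). Without centring the change was 2.31. From PS to RS the centred change was -0.52 (SE 0.19, limma adjusted p = 0.0880) and did not pass, although without centring it did (-0.72, adjusted p = 0.0314).

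The Mdc1 peak was also wider in adult cells. In spermatogonia its strongest promoter peak was 226 to 610 bp long, apart from 1271 bp in Thy1+ KO replicate 1, and in PS and RS it was 2271 to 2915 bp. The median length over all promoters called in the 12 libraries was 845 to 1552 bp in spermatogonia and 1791 to 2163 bp in PS and RS, so Mdc1 lay below the median in spermatogonia and above it in the adult cells. In all spermatogonial libraries with a peak the highest summit lay 206 to 766 bp inside the gene. The 250 bases printed for Mdc1 were covered whole by the peak in all 4 adult libraries. They were covered for 120 bases in Thy1+ KO replicate 1 and not at all in the other 7 spermatogonial libraries. The marked letters of Mdc1 thus lay inside a called peak in PS and RS. In Thy1+ KO replicate 1 all of them but the MYB letters did as well.

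**Figure D2:**
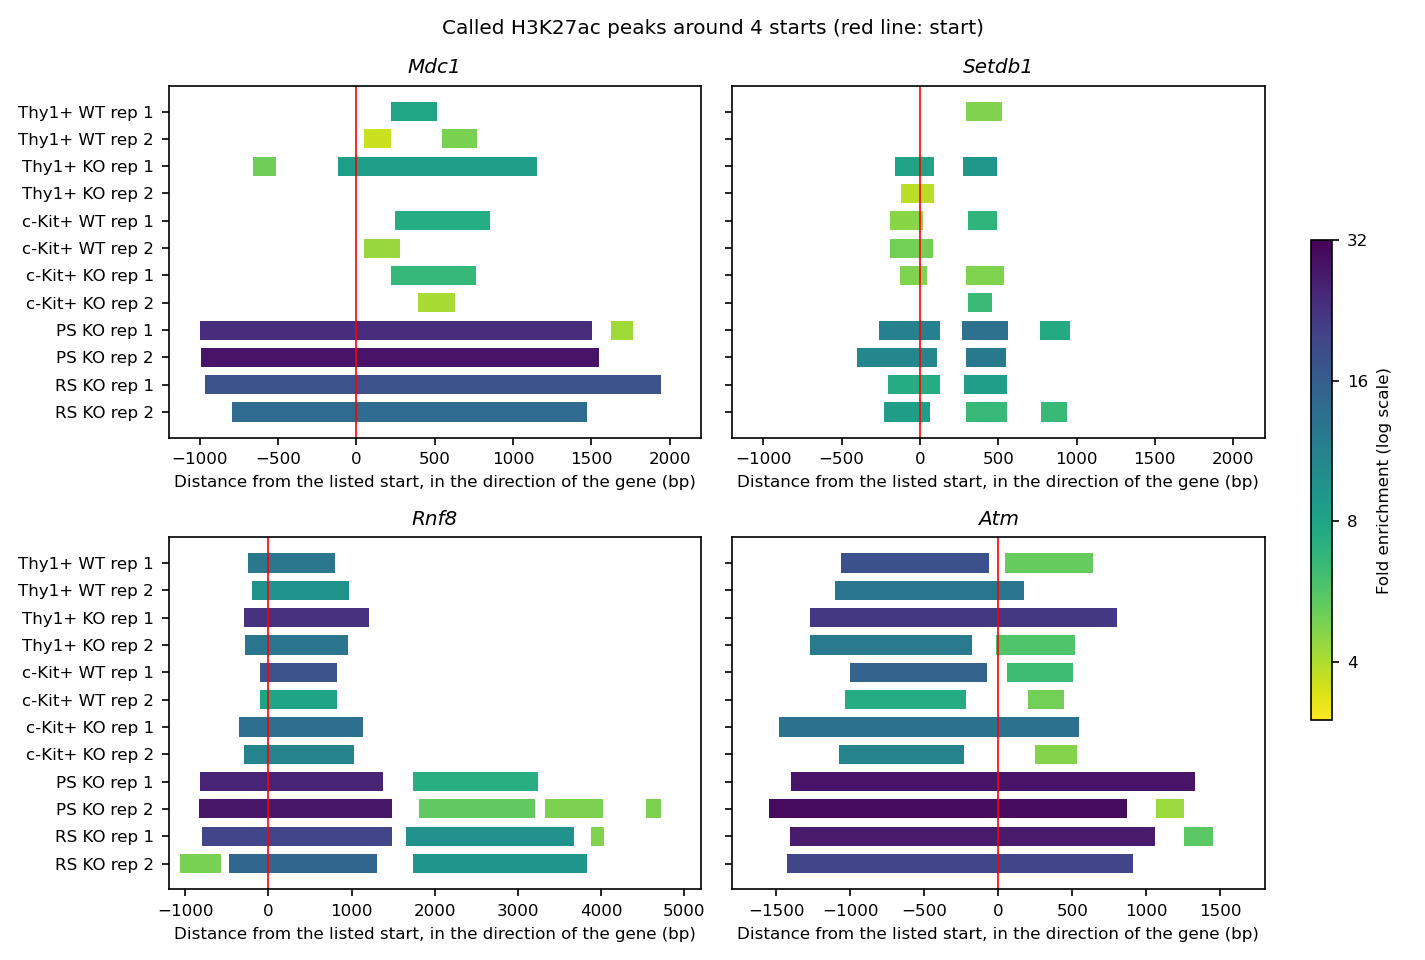
Called H3K27ac peaks in each library (rows) by their distance from the listed start of Mdc1, Setdb1, Rnf8 and Atm in the direction of the gene (bp), with the start as a red line and colour for fold enrichment on a log scale. At Mdc1 the adult peaks span the start. The short spermatogonial peaks there lie inside the gene, apart from an upstream peak of 148 bp in Thy1+ KO replicate 1. At Setdb1 no promoter peak is longer than 511 bp, at Rnf8 a downstream peak appears in PS and RS, and at Atm most of the peak lies upstream.

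Atr encodes the kinase that phosphorylates H2AX on the unpaired chromosomes. Its promoter fold enrichment was 12.6 and 12.7 in Thy1+ WT, 21.3 and 10.2 in Thy1+ KO, 6.84 and 9.92 in c-Kit+ WT and 11.8 and 8.16 in c-Kit+ KO. It was 34.7 and 32.5 in PS and 29.3 and 23.8 in RS. The lowest group was c-Kit+ WT (8.38 ± 2.18, SD, n = 2) and the highest PS KO (33.6 ± 1.54, SD, n = 2), and every adult value was above every spermatogonial one. Relative to the median region the rise from c-Kit+ KO to PS KO was 0.70 (SE 0.19, limma adjusted p = 0.0148). Under the alternatives its adjusted p ran from 1.24e-08 to 0.100. The call was lost without c-Kit+ KO replicate 2 (0.67, adjusted p = 0.100), without PS KO replicate 1 (0.67, adjusted p = 0.0893), with quantile normalisation (0.76, adjusted p = 0.0615) and with those regions let in (1.01, adjusted p = 0.0784), and without centring the change was 1.77. From PS to RS the change was -0.15 (SE 0.19, limma adjusted p = 0.622). The peak covers the starts of both Atr and 1700065D16Rik, which lie 80 bp apart on opposite strands, so the mark cannot be assigned to either gene, although in all 12 libraries the highest summit lay 58 to 563 bp into Atr.

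Atm encodes the kinase that responds to breaks. Its fold enrichment was 17.8 and 12.7 in Thy1+ WT, 21.8 and 12.2 in Thy1+ KO, 15.4 and 7.44 in c-Kit+ WT, 13.2 and 11.1 in c-Kit+ KO, 28.2 and 29.9 in PS and 26.99 and 19.5 in RS. The second RS library lay below the first Thy1+ KO library, so adult and spermatogonial values overlapped. The mean went from 12.2 ± 1.53 in c-Kit+ KO to 29.0 ± 1.16 in PS KO (SD, n = 2), but relative to the median region the change was 0.18 (SE 0.19, adjusted p = 0.492 by limma) and did not pass. Without centring it was 1.26 and passed, and the difference between Atm and Atr was not tested. Topbp1, whose product activates ATR, ran from 9.30 to 22.8 in spermatogonia and was 22.5 and 19.7 in PS and 17.6 and 16.2 in RS. Its centred changes were -0.13 from c-Kit+ KO to PS KO (limma adjusted p = 0.656) and -0.12 from PS to RS (limma adjusted p = 0.709), and the first turned positive without centring (0.95).

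H2afx encodes the histone variant H2AX, the substrate of both kinases. Its fold enrichment was 11.0 and 9.65 in Thy1+ WT, 18.2 and 10.9 in Thy1+ KO, 10.3 and 7.44 in c-Kit+ WT and 10.9 and 9.33 in c-Kit+ KO, against 27.5 and 27.7 in PS and 26.2 and 21.6 in RS. All adult values were above all spermatogonial ones, and the PS and RS groups (27.6 ± 0.19 and 23.9 ± 3.23, SD, n = 2 each) were close. The centred change from c-Kit+ KO to PS KO was 0.38 (SE 0.19, limma adjusted p = 0.150) and did not pass the threshold, and from PS to RS it was -0.02 (limma adjusted p = 0.957). The peak was 297 to 1971 bp long in spermatogonia and 2896 to 3687 bp in the adult libraries.

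Rnf8, the ubiquitin ligase recruited by MDC1, had promoter values of 12.6 and 9.65 in Thy1+ WT, 22.8 and 12.8 in Thy1+ KO, 17.7 and 8.06 in c-Kit+ WT, 13.7 and 11.1 in c-Kit+ KO, 25.2 and 27.7 in PS and 19.6 and 14.6 in RS. Adult and spermatogonial values overlapped, and the centred change from c-Kit+ KO to PS KO was 0.02 (limma adjusted p = 0.942). From PS to RS it was -0.45 (SE 0.19, limma adjusted p = 0.130). Rnf8 had a further peak in an intron, in the merged region chr17:29616484-29618866, in all 4 adult libraries and in none of the 8 spermatogonial ones. Of 129187 merged regions, 4.94% had that pattern, and this was the 1 region of a member that did. The fold enrichment of the intron peak was 7.24 and 5.33 in PS and 9.78 and 9.20 in RS, with summits 1975 to 2892 bp from the start. The rise from PS to RS was 0.80 relative to the median region (SE 0.23, limma adjusted p = 0.0353), opposite in sign to the change at the promoter, and this difference between the 2 sites was not tested. The adjusted p ran from 0.0127 to 0.220 over the alternatives. The call was lost without PS KO replicate 2 (0.44, adjusted p = 0.220), without RS KO replicate 1 (0.90, adjusted p = 0.0586), without RS KO replicate 2 (0.67, adjusted p = 0.162), without centring (0.61, adjusted p = 0.0655) and with regions called in 2 of the 4 libraries let in (0.61, adjusted p = 0.105).

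Brca1, which encodes a ubiquitin ligase of homologous recombination and of the sex chromosome axes, had the highest median fold enrichment of the set over the 12 libraries, 19.4. Its fold enrichment was 19.9 and 15.7 in Thy1+ WT, 28.9 and 17.3 in Thy1+ KO, 18.8 and 12.4 in c-Kit+ WT and 13.7 and 12.8 in c-Kit+ KO, against 32.8 and 31.99 in PS and 34.0 and 30.3 in RS. The adult values were above all the spermatogonial ones, by a small margin over Thy1+ KO replicate 1. Among the promoters called in a library, Brca1 stood at percentiles 73.5 to 98.2. The centred changes were 0.21 from c-Kit+ KO to PS KO (SE 0.20, limma adjusted p = 0.443) and 0.18 from PS to RS (SE 0.19, limma adjusted p = 0.553), the second of which turned to -0.01 without centring. Fancd2, the Fanconi anaemia protein that is ubiquitinated at stalled forks, ran from 8.06 to 20.3 in spermatogonia and was 20.2 and 22.4 in PS and 14.1 and 13.5 in RS. Its centred change from PS to RS was -0.43 (SE 0.20, limma adjusted p = 0.156), and that from c-Kit+ KO to PS KO was -0.09 (limma adjusted p = 0.765), which turned to 0.99 without centring.

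Setdb1, the methyltransferase of lysine 9 of histone H3, had the weakest promoter mark in most libraries and an unusual peak shape. Its fold enrichment was 4.72 in Thy1+ WT replicate 1, 9.11 and 3.84 in Thy1+ KO, 6.84 and 4.96 in c-Kit+ WT, 4.73 and 6.41 in c-Kit+ KO, 13.3 and 12.3 in PS and 8.61 and 8.66 in RS. These are the highest values near the start, and they come from 2 sites. Those of Thy1+ KO replicate 2, c-Kit+ WT replicate 2 and RS replicate 2 are from a peak over the start and the others from a peak inside the gene, where RS replicate 2 had 6.49. PS values were the highest, and the RS values lay below the first Thy1+ KO library. The strongest promoter peak was 154 to 298 bp long in all 11 libraries with a peak, while 0.0914% to 9.47% of promoters called in all 12 libraries had a peak under 300 bp. Separate short peaks had summits 375 to 421 bp inside the gene in 9 libraries and from 89 bp before to 29 bp after the start in 9 libraries, and PS replicate 1 and RS replicate 2 had a further peak with summits 863 and 861 bp inside. At the inner site the change from c-Kit+ KO to PS KO was 0.14 (SE 0.25, limma adjusted p = 0.709) and from PS to RS -0.58 (SE 0.20, limma adjusted p = 0.0647). At the site over the start the change from PS to RS was -0.27 (SE 0.23, limma adjusted p = 0.446). The inner site passed without centring (-0.78, adjusted p = 0.0210) and with regions called in 2 of the 4 libraries let in (-0.78, adjusted p = 0.0480). The 250 bases printed for Setdb1 lay whole inside a peak in both PS libraries, and 206 and 227 of them did in RS. In spermatogonia 123 to 193 of them did in 5 libraries and 0 in the other 3.

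Across the 7 genes called in all 12 libraries, Brca1, Atr and H2afx (3 of 7) had every adult library above every spermatogonial one in the deposited values, a pattern shown by 22.4% of 8753 such promoters. With the library's median promoter subtracted, Atr and H2afx (2 of 7) still had it, against 6.73% of promoters. For Atr the lowest adult and highest spermatogonial centred log2 values were 0.54 and 0.49, and for H2afx 0.31 and 0.09. Atm, Topbp1, Rnf8 and Fancd2 overlapped on both scales.

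Of the 9 promoters, Mdc1 and Atr (2 of 9) were called higher in PS KO than in c-Kit+ KO, against 6.83% of the 12501 regions tested, and none was called lower, while 31.9% of regions passed in either direction. The median change over all regions was -0.17 and the changes of the other 7 promoters ran from -0.13 to 0.38. The count rests on the scaling. The median log2 fold enrichment before centring was 2.81 and 3.17 in the c-Kit+ KO libraries and 4.04 and 4.09 in PS, and without centring all 9 promoters were called higher. Over all regions 854 were called higher and 3138 lower with centring, 386 and 398 with quantile normalisation, and 8841 and 99 without centring. Of all regions 3992 passed, 2583 without PS KO replicate 2 and 0 without c-Kit+ KO replicate 2, where 0 of the 9 promoters passed as well. Without PS KO replicate 1, 1 of the 9 did, Mdc1. Sertoli cell markers (6 genes) moved with this comparison, but so did promoter calls in general. A promoter peak was called at 62.9% and 61.1% of protein-coding genes in PS and at 53.7% and 48.2% in c-Kit+ KO. The marker sums here are of deposited values, without centring. All 6 Sertoli markers were called in both PS libraries, with a summed fold enrichment of 49.95 and 66.6. In c-Kit+ KO 4 were called in replicate 1 (25.5 summed) and 1 in replicate 2 (9.91). Of the 5 Leydig cell markers 3 were called in both PS libraries, with 22.5 and 25.1 summed, and in c-Kit+ KO 3 in replicate 1 (16.6) and 1 in replicate 2 (5.83), while Cyp17a1 and Hsd3b1 were at 0 in all H3K27ac libraries. Of the 5 blood and vessel markers 4 and 3 were called in PS (23.6 and 21.3) and 1 in each c-Kit+ KO library (6.62 and 6.41). Peritubular markers (4 genes) did not rise, with 3.05 to 4.80 summed in PS and 0 to 10.4 in c-Kit+ KO. Markers of undifferentiated spermatogonia were also higher in PS, with 52.8 to 53.0 summed against 8.16 to 19.4 in c-Kit+ KO. Round spermatid markers, 5 of which had a listed start, were all called in PS (35.7 and 74.4 summed), and none was in c-Kit+ KO. Their part in the result was not tested.

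None of the 9 promoters passed between PS and RS, where 12.4% of 21329 regions were called higher and 20.2% in either direction (limma). Mdc1, Setdb1 and Rnf8 (3 of 9) had an unadjusted p under 0.05, as did 7283 of the 21329 regions, a similar share. Changes ran from -0.58 at Setdb1 to 0.18 at Brca1, with 8 of 9 below 0, against a median of -0.08 over all regions. With quantile normalisation the values of Topbp1 (0.01) and H2afx (0.10) were above 0, and without centring Brca1 (-0.01) was below it. Without centring 2220 regions were called higher and 3630 lower, where the centred fit gave 2648 and 1661, and 2 of the 9 promoters (Mdc1 and Setdb1) passed as lower. Of all regions 4309 passed, 0 without PS KO replicate 2 and 2816 without RS KO replicate 1. Promoter peaks were called at 62.9% and 61.1% of protein-coding genes in PS and at 62.1% and 59.8% in RS. The marker sums were again not centred. Sertoli markers were lower in RS, with 3 of 6 called (16.8 and 13.5 summed, against 49.95 and 66.6 in PS). So were Leydig markers, with 1 of 5 called (4.30 and 5.41, against 22.5 and 25.1). Blood and vessel markers were higher, with 5 of 5 called in both RS libraries (44.98 and 35.7, against 23.6 and 21.3). Peritubular markers overlapped, with 3.25 to 8.21 summed in RS and 3.05 to 4.80 in PS. The part of these cells in the result was not tested.

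**Figure D3:**
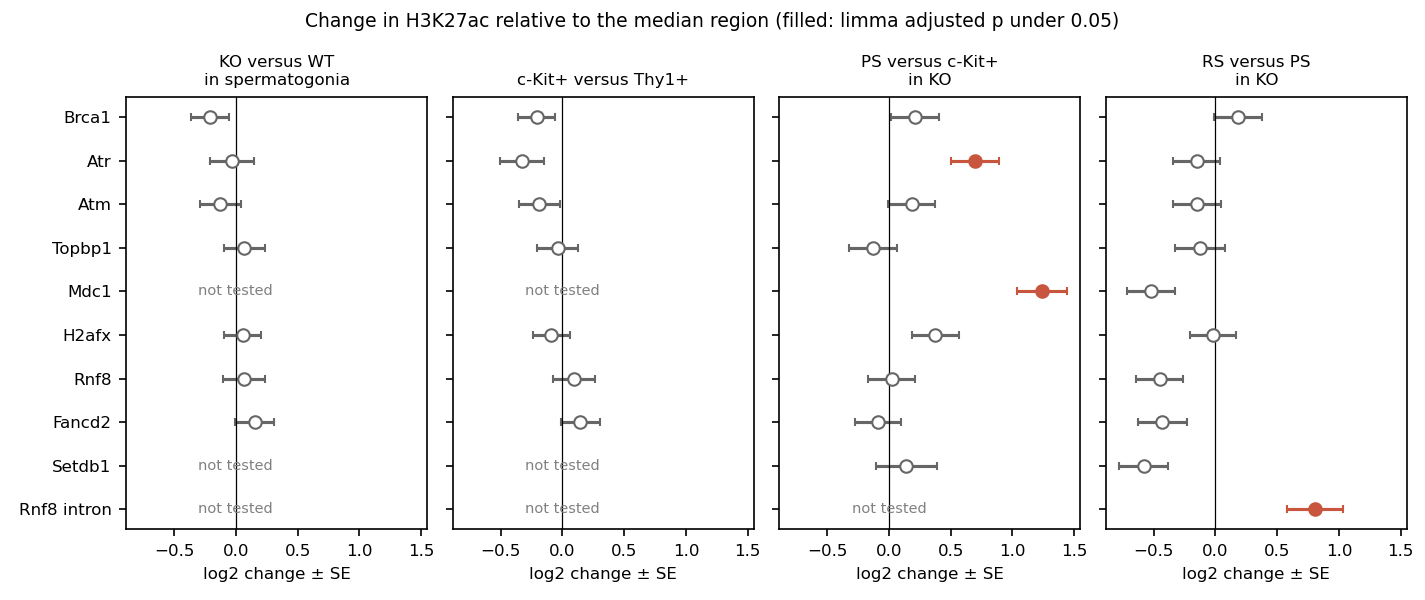
Change in H3K27ac on the log2 scale with its standard error at the 9 promoters and the Rnf8 intron region in 4 comparisons, each relative to the median region, with filled red points for a limma adjusted p under 0.05. Mdc1 (1.24) and Atr (0.70) in PS against c-Kit+ KO and the Rnf8 intron (0.80) in RS against PS are filled, and regions without a peak in every library of a fit are marked as not tested.

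Loss of Scml2 was not followed by a detectable change at these promoters in spermatogonia. A peak in all 8 spermatogonial libraries was needed for the test, which 7 of the 9 genes had, Mdc1 and Setdb1 being the exceptions. With both stages together, 0 of the 7 passed and so did 0.0% of 9585 regions (limma). At an unadjusted p under 0.05 the counts were 0 of the 7 and 512 of all regions. The changes in KO ran from -0.21 at Brca1 (SE 0.15, limma adjusted p = 0.982) to 0.15 at Fancd2 (SE 0.16, limma adjusted p = 0.982), against a median of -0.04. Brca1 turned to 0.07 without centring. Without Thy1+ KO replicate 2, 23 regions in all passed, none of them at a member. The difference in genotype effect between c-Kit+ and Thy1+ cells passed at 0 of the 7 and at 0.0% of 9585 regions (limma, 453 with an unadjusted p under 0.05), and ran from -0.15 at Fancd2 to 0.51 at Atm (SE 0.33, limma adjusted p = 0.998). In the deposited values the Thy1+ KO replicates differed by more than the WT ones at all 7 genes. With each library centred on its median over the promoters called in all 12 libraries, this held for Brca1 and Rnf8 alone. The test centred on its own set of regions instead.

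Between c-Kit+ and Thy1+ cells of both genotypes, 0 of the 7 promoters passed, against 1.09% of 9585 regions, 79 of them higher and 25 lower in c-Kit+ (limma), or 36 and 21 with quantile normalisation. At an unadjusted p under 0.05 the counts were 0 of the 7 and 1354 of all regions. The change ran from -0.33 at Atr (SE 0.18, limma adjusted p = 0.411) to 0.14 at Fancd2 (SE 0.16, limma adjusted p = 0.735), which turned to -0.13 without centring.

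Brca1, Atr, Atm and Fancd2 (4 of 9) share their promoter with a gene on the other strand that starts within 1000 bp. For this count any neighbour listed with the peaks was taken, without asking whether it codes for a protein. Of 17492 protein-coding genes with a RefSeq promoter sequence, 8.48% have a protein-coding neighbour of that kind. Fancd2 and H2afx are not among those genes, so the member count and this share were measured differently and cannot be compared directly. Nbr1, an autophagy receptor, starts 152 bp from Brca1. Npat, a regulator of histone genes, starts 376 bp from Atm, and Emc3 starts 44 bp from Fancd2. The summit fell on the side of the neighbour at 3 of the 4 genes. At Brca1 the highest summit lay upstream of the start, on the Nbr1 side, in all 12 libraries, at positions -304 to -1262 bp. At Atm it lay at -367 to -711 bp, on the Npat side, in all 12. At Fancd2 it lay at -187 to -493 bp, on the Emc3 side, in 11 of 12 libraries. H2afx, Mdc1 and Rnf8 had their highest summit 135 to 766 bp inside the gene in every library with a peak. The 151 bases printed for Brca1 were covered whole by peaks in 9 libraries and for 33 to 77 bases in the other 3, all spermatogonial. The values given for these 4 genes thus describe a shared regulatory region.

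**Figure D4:**
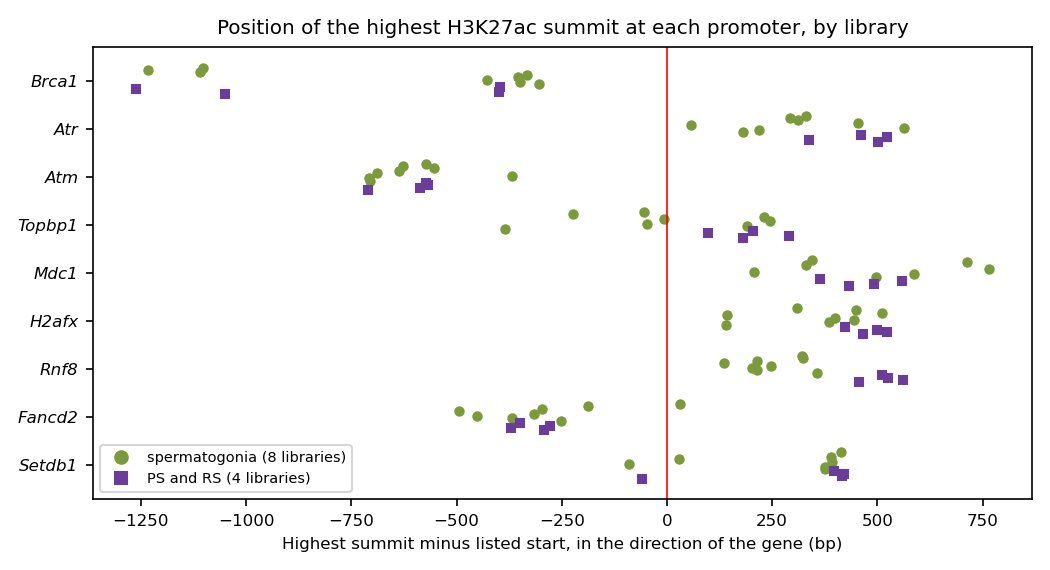
Distance in bp from the listed start to the highest H3K27ac summit at each promoter, in the direction of the gene, with green circles for the 8 spermatogonial and purple squares for the 4 PS and RS libraries. Summits lie upstream at Brca1 and Atm in all libraries and at Fancd2 in 11 of 12, and downstream at Atr, Mdc1, H2afx and Rnf8.

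Away from the promoters the members had few and weak peaks. Rnf8 had 14 such peaks on its own lines, Brca1 9, Mdc1 7, Topbp1 5, Atm, H2afx and Setdb1 2 each and Fancd2 1. Rnf8 also had peaks at its far end, 26666 to 26840 bp from the start, in both PS libraries (fold enrichment 5.72 and 5.86) and in c-Kit+ WT replicate 1 (3.99). Brca1 had a peak 7821 to 7967 bp into the gene in both RS libraries (5.08 and 4.33) and in c-Kit+ WT replicate 2 (4.96). Topbp1 had intron peaks 31439 to 32740 bp from its start in 4 libraries, with fold enrichments from 3.13 to 4.73. Mdc1 had peaks over exons in both RS libraries, 6742 to 16616 bp from the start (3.25 to 4.69), where no other library had a peak. Apart from the Rnf8 intron region the fold enrichment of these peaks ran from 3.05 to 5.86, and none was tested.

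Genes that work with the members were read from lists chosen with earlier results of these data known. Of the ATR and ATM activation and checkpoint genes (17, such as Atrip, Rad9a and Chek1), 0 of 14 tested promoters passed in PS against c-Kit+ KO, with 0 at an unadjusted p under 0.05, and the median change was 0.0013, against -0.17 over all regions (limma). Over all regions 6.83% were called higher and 31.9% in either direction. Of the ubiquitin signalling genes, 1 of 14 passed. This was Bard1, the partner of BRCA1, which went from 6.57 ± 0.60 to 25.6 ± 7.58 (SD, n = 2), a change of 0.85 (SE 0.24, limma adjusted p = 0.0168). Of the Fanconi anaemia and homologous recombination genes, 1 of 18 rose and 1 fell. Fancg, of the core complex that acts on FANCD2, changed by 0.84 (SE 0.20, limma adjusted p = 0.00742), and Fanci, the partner of FANCD2, by -0.64 (SE 0.19, adjusted p = 0.0208 by limma). Fanci's deposited level was nonetheless higher in PS (10.5 ± 0.26) than in c-Kit+ KO (7.75 ± 1.07, SD, n = 2), since the change is relative to the median region, and without centring it was 0.44.

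Of the SETDB1 partners and other genes of H3K9 methylation, 4 of 16 rose and 0 fell in PS, with a median change of 0.35, where 6.83% of all regions were called higher and 31.9% in either direction. Atf7ip2, a germ cell relative of the SETDB1 cofactor ATF7IP, rose most, from 5.82 ± 2.46 to 26.1 ± 2.99 (SD, n = 2), by 1.15 (SE 0.22, limma adjusted p = 0.00174), a size near that of Mdc1. Uhrf1 rose by 0.74 (SE 0.19, limma adjusted p = 0.00958), and the methyltransferase gene Suv39h2 (0.74, limma adjusted p = 0.0193) and Trim28 (0.60, limma adjusted p = 0.0295), which recruits SETDB1, were the others. Setdb1 itself was at 0.14. Of the genes for chromatin marks of the sex body, 2 of 9 tested rose, Dot1l (0.59, limma adjusted p = 0.0415) and Chd4 (0.55, limma adjusted p = 0.0460), and 1 fell, Mta1 (-0.64, limma adjusted p = 0.0337), which turned to 0.44 without centring. The calls in these lists depended on the scaling and on single libraries. Without centring every promoter tested in the checkpoint, ubiquitin and SETDB1 lists (14, 14 and 16) was called higher, as were 17 of 18 and 8 of 9 in the other lists. Without c-Kit+ KO replicate 2 none passed in any of the 5 lists (limma), and with quantile normalisation Uhrf1 alone did. Bard1 did not pass without PS KO replicate 2 (0.61, limma adjusted p = 0.149), and no sex body gene passed when either PS library was left out. With the replicate number as a block Dot1l (adjusted p = 0.0589) and Chd4 (adjusted p = 0.061) did not pass.

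From PS to RS these lists had 2 calls, both lower. They were 1 of 19 promoters tested in the Fanconi anaemia list and 1 of 16 in the SETDB1 list. None passed in the other lists, with 15, 14 and 12 tested. Over all 21329 regions 20.2% passed in either direction, and 1661 regions were called lower. Fancg went from 21.7 ± 0.56 to 11.6 ± 1.86 (SD, n = 2), a change of -0.72 (SE 0.19, adjusted p = 0.0279 by limma), which did not pass without any 1 of the 4 libraries (adjusted p from 0.0738 to 0.159). Suv39h1, an X-linked H3K9 methyltransferase gene, went from 19.1 ± 3.86 to 8.90 ± 0.42 (SD, n = 2), a change of -0.90 (SE 0.22, adjusted p = 0.0226 by limma), which did not pass without PS KO replicate 2 (0.160) or RS KO replicate 1 (0.144). In the 3 comparisons among spermatogonia 0 genes of any list passed (limma), and 0 to 2 per list and comparison had an unadjusted p under 0.05.

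Over the 12 libraries, and among the promoters called in all of them, the centred pattern of Atr was most like those of Cd320 (Pearson r 0.955) and 5830454E08Rik (0.947), and that of H2afx most like those of Phf1 (0.962) and Adat3 (0.949). Brca1 was most like Cox20 (0.917) and Ppp1r37 (0.915), Fancd2 like Pabpc4 (0.906) and Exosc6 (0.844), and Rnf8 like Sympk (0.879) and 4930473A02Rik (0.856). Atm was most like Hace1 (0.854) and Pknox1 (0.774), and Topbp1 like D330050I16Rik and Sart1 (0.839 each). Each was the best of 8751 or 8752 genes compared over libraries that all genes share, so the values describe these libraries. No member was among the 2 genes most like another member.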

How the data were processed

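Sample titles gave the groups and replicate numbers. Bowtie, MACS2 and the mouse build mm10 are named in the submitters' processing notes, with no versions or settings. Each library had its own table of peaks, so replicates were not pooled. Per the file headers, a line gave the signal height (pileup) at a summit, −log10 p and −log10 q values, a fold enrichment and the peak's length. The deposited fold enrichment equalled the ratio of height plus 1 to a constant background plus 1, so no input was subtracted, and depth is unknown. The files' coordinates, counted from 1, were used as deposited, and the starts used match the RefSeq GRCm38.p6 promoter table for 6 of the 7 members in it. For Rnf8 the table's start, used for its motif search, is 29614789, and that of the files is 29614831.

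A peak's value was that of its highest summit, and the mitochondrial genome was not used. For each comparison, peaks overlapping by at least 1 bp were merged, regions with a peak in every library of the fit were kept, the log2 fold enrichment was centred on each library's median, and limma 3.58.1 (R 4.3.3) was fitted to the libraries compared, with Benjamini-Hochberg adjustment over all regions and a threshold of 0.05. A gene's promoter region was, of the kept regions within 1000 bp of its start, the one with the highest mean log2 value over the libraries of the fit. Other work used Python 3.11.15, pandas 2.3.3 and numpy 2.4.6. The fit was tested on simulated data. Named were all 9 genes, their other regions that passed, of each pathway list at most 2 genes per direction (Suv39h2 and Trim28 were named after their values were seen), and the 2 genes most like each member. Motifs were chosen after the values were seen, as was the refitting of the pathway lists under each alternative. The members and lists were chosen with earlier results of these data known.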

Additional observations from a re-analysis of the deposited data

How the results depend on the processing

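In PS against c-Kit+ KO (3992 regions), the count was 2013 with peaks of −log10 q of at least 5, 784 with quantile normalisation, 8940 without centring and 0 to 4564 with 1 library left out. The count of members (2 of 9) was then 1, 1, 9 and 0 to 2, and it was 0 with regions called in 50% of the libraries let in. In RS against PS (4309 regions) the count was 1982 with the stricter peaks, 7022 with regions called in 50% of the libraries let in and 0 to 3402 with 1 library left out. The members' count (0 of 9) became 2 without centring and 1 with those regions. Between c-Kit+ and Thy1+ cells (104 regions) it was 19 with the stricter peaks, 57 with quantile normalisation, 0 without centring, 904 with those regions and 10 to 197 with 1 library left out. Lowest was the fit without Thy1+ WT replicate 1 and highest that without Thy1+ KO replicate 2, and it was 26 to 35 without any 1 of the other libraries but Thy1+ WT replicate 2 (128). For KO against WT (0 regions) it was 1 with those regions and 0 to 23 with 1 library left out. Replicate numbers were not shown to pair libraries, since the deviations of same-numbered libraries correlated by 0.0004 to 0.16. With the replicate block 6 regions passed for KO against WT, 230 between c-Kit+ and Thy1+ cells, 3705 in PS against c-Kit+ KO and 4456 in RS against PS, and the block changed no call at a member. Of the refits of pathway genes, chosen after seeing the data, 91 of 142 kept call and sign, 49 lost the call, and Fanci (0.4412) and Mta1 (0.4406) turned sign without centring.

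Changes near 0 turned sign. In PS against c-Kit+ KO, Topbp1 became 0.95 without centring, 0.18 with those regions and -0.2057 to 0.0293 with a PS library left out, Fancd2 0.99, 0.22 and -0.0982 to 0.0043, and Setdb1 -0.2213 to 0.5967 with a c-Kit+ KO library left out. In RS against PS, Brca1 became -0.0126 without centring and -0.0142 with those regions. With the stricter peaks Atr became 0.0063, Atm 0.0123, Topbp1 0.0348 and H2afx 0.14, Topbp1 was 0.0102 and H2afx 0.10 with quantile normalisation, and H2afx was 0.0065 when an overlap of 50% was required. Without centring Brca1 became 0.0667 in KO against WT and Fancd2 -0.13 in c-Kit+ against Thy1+ cells. The cause was not tested. Of 289 refits of single promoters or regions 252 gave the same sign and side of the threshold. Most of the 289 were of promoters not called in the main fit. Mdc1 kept its PS call in 9 refits and lost it in 2, and Atr kept its call in 8 and lost it in 4. The Rnf8 intron region kept its RS call in 6 and lost it in 5. All 150 recomputed levels moved by less than 1 SD, but groups that lost a peak were left out. Stricter peaks, with 99 of 108 pairs called, could only keep or lose a level. In PS against c-Kit+ KO, Mdc1 and Setdb1 could not be fitted with the stricter peaks, since a library then had no peak. Depth is unknown, so a missing peak at a weak promoter cannot be told from too few reads.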
